A study of Mus musculus with 2 samples.

Results

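The smooth muscle contractile genes examined here are Acta2, Actg2, Tpm1, Tpm2, Cnn1, Tagln, Myh11, Mylk, Smtn and Des, 10 of the 12393 genes with a probe set on the array. They were taken by name, and every probe set that the platform annotation assigns to one of them was used, which gave 20 of 22626 probe sets. RNA came from uterine implantation sites, the swellings of the pregnant uterus that hold a conceptus, its decidua and the muscular wall around them. The sites were dissected from 4-month-old females of mixed C57BL/6J and OLA129 background on day 8 of pregnancy. The Cbs null group, from females homozygous for loss of cystathionine beta-synthase, had 1 array, and the control group, from females labelled control for genotype, had 1 array. The labels give neither the deleted part of Cbs, nor the genotype of the conceptus, nor the number of animals or sites behind an array.

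Smooth muscle contracts when myosin thick filaments pull on thin filaments of smooth muscle actin and tropomyosin, after a calcium-dependent kinase phosphorylates the myosin light chain. In the pregnant uterus most of this machinery lies in the myometrium, the outer muscle layers, with a smaller amount in the walls of arteries. The share of these transcripts in a dissected site therefore also depends on how much muscle wall was taken with it. In bulk RNA a change in the number of muscle cells and a change in RNA per cell cannot be told apart.

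The contractile genes gave strong and nearly equal signals in both samples. Each gene had at least 1 probe set with a mean signal over 1000, and the 13 such probe sets lay at percentiles 95.19 to 99.92 of all signals on the Cbs null array and 94.67 to 99.93 on the control array. None of the 18 probe sets that passed the signal filter was 1.5-fold apart, beside 4.26% of all 11315 probe sets past the filter, and none was 2-fold apart, beside 0.972%. The median log2 ratio, Cbs null over control, was 0.02 over these 18 probe sets and 0.01 over all probe sets past the filter. With 1 array per genotype there is no replicate check and no test, so each value describes these 2 arrays only. Signal is fluorescence intensity on a linear scale, and the filter is a mean signal of 70.5. Because probes differ in how well they bind, levels of different probe sets are not read as relative amounts of transcript. Percentiles rank signals only, and the summed signals below weight each gene by how well its probes bind.

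Some facts about the arrays bear on every value below. Both arrays had a trimmed mean signal of 200.08 over all rows. Signal at the 3′ end exceeded that at the 5′ end by a ratio of 1.15 on the Cbs null array and 1.07 on the control array for Gapdh, and of 1.61 on the Cbs null array and 1.54 on the control array for beta-actin. Cbs itself was dim on both arrays, with signals of 23.8 and 22.3 in Cbs null and 30.3 and 29.9 in control, so it gives no firm check of the genotype. Among decidual genes, Prl8a2 read 3633.6 in Cbs null and 2542.7 in control, and Tdo2 read 1750.3 in Cbs null and 3129.5 in control. All 11 listed markers of decidual stroma passed the filter, as did 7079 of the 12393 genes on the array. The filter uses the mean of both arrays, so passing it does not show presence on each.

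The actins form the thin filament. Acta2 encodes smooth muscle alpha-actin, which is also made in arterial walls and pericytes. Its probe set 1416454_s_at read 7962.8 in Cbs null and 7868.8 in control, a log2 ratio of 0.02 that became -0.02 under quantile normalization. A second Acta2 probe set, 1456658_at, read only 56.2 in Cbs null and 56.8 in control, under the signal filter. Neither probe set separated the samples by more than 1.20%. Actg2 encodes gamma-actin of smooth muscle, the isoform typical of visceral muscle such as gut and uterus. It read 5411.3 in Cbs null and 5784.9 in control, a log2 ratio of -0.10. Each of these actins rests on 1 bright probe set, and both, 1416454_s_at and 1422340_a_at for Actg2, are marked as shared by their names. The brightest pair of probe sets of a gene differed by a median of 0.16 over all genes with several past the filter. No difference between Acta2 and Actg2 is therefore read from these ratios.

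The upstream sequence of Acta2 is shown because muscle actin genes are the classic targets of serum response factor, which binds CArG boxes together with the coactivator myocardin. RefSeq's GRCm38.p6 promoter table held windows for 7 of the 10 genes (Acta2, Tpm1, Tpm2, Cnn1, Mylk, Smtn and Des). The 250 bases before the Acta2 start are at chr19:34255374-34255623 on the minus strand, printed 5′ to 3′ with the CArG-like boxes in capitals.
Acta2: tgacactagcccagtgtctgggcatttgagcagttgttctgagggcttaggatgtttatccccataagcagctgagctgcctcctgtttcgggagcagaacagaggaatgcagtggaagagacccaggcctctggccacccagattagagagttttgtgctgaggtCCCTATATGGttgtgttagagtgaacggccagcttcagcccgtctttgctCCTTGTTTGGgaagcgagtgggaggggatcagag
The search covered the CArG box of 10 letters, which is the same form on both strands, either complete or with 1 G or C among the 6 A or T letters of its core. A complete box stood in none of the 7 windows and in 1.47% of the 32851 windows of the table. Allowing 1 G or C, a box was found in 8.59% of all windows and in the Acta2 window alone of the 7. The Acta2 boxes run from 84 to 75 and from 34 to 25 bases before the start, and 0.67% of all windows held 2 or more. A match describes the letters and not binding, and the arrays measured transcripts only.

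Tropomyosins wind along the actin filament, and Tpm1 and Tpm2 are transcribed into several isoforms that other muscle and nonmuscle cells also make. The Tpm1 probe set 1423721_at read 4054.2 in Cbs null and 4009.3 in control. Another, 1423049_a_at, read 2103.3 in Cbs null and 2243.3 in control, and 1456623_at read 453.2 in Cbs null and 427.7 in control. The log2 ratios of 0.02, -0.09 and 0.08 lay on both sides of 0, with a spread of 0.18 between them. For Tpm2, the probe set 1419738_a_at read 6551.1 in Cbs null and 6405.1 in control, and 1425028_a_at read 4213.1 in Cbs null and 4437.1 in control. These bright Tpm2 probe sets had log2 ratios of 0.03 and -0.07. The dim ones stood higher in Cbs null, with 152.9 in Cbs null against 121.4 in control for 1419739_at and 163.4 in Cbs null against 141.3 in control for 1449577_x_at. Their log2 ratios of 0.33 and 0.21 were the highest of all 20 probe sets. The annotation gives the same cDNA for 1419738_a_at, 1419739_at and 1449577_x_at, so the bright and the dim readings differ for one annotated target.

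Calponin (Cnn1) and transgelin (Tagln, also called SM22 alpha) bind the actin filament and are standard markers of differentiated smooth muscle. Cnn1 read 2590.2 in Cbs null and 2665.6 in control, a log2 ratio of -0.04. Tagln read 5138.5 in Cbs null and 5363.0 in control, a log2 ratio of -0.06. Each rests on a single probe set, and each lay within 5% of its control value.

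Myh11 and Mylk belong to the motor. Myh11 encodes the smooth muscle myosin heavy chain, the most cell-type-restricted protein of the group. Its bright probe set, 1448962_at, read 3293.9 in Cbs null and 3132.4 in control, while the dim one, 1418122_at, read 111.3 in Cbs null and 127.7 in control. The log2 ratios of 0.07 and -0.20 pointed in opposite directions although the annotation gives both probe sets the same cDNA. Mylk encodes the myosin light chain kinase that starts contraction. Its 3 probe sets read 5046.9, 4652.5 and 323.5 in Cbs null, against 5011.6, 4475.6 and 317.7 in control. The log2 ratios of 0.01, 0.06 and 0.03 spanned 0.05, the closest agreement among the 4 genes with several probe sets past the filter, across bright and dim signals.

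Smoothelin (Smtn) is a cytoskeletal protein of contractile smooth muscle, and desmin (Des) is the intermediate filament protein shared by smooth, cardiac and skeletal muscle, which decidual cells can make too. Smtn read 1199.1 in Cbs null and 1093.7 in control, and its log2 ratio of 0.13 was the highest among the brightest probe sets of the 10 genes. Des read 2886.9 in Cbs null and 3295.9 in control with 1426731_at, and its log2 ratio of -0.19 was the lowest among them. The other Des probe set, 1426732_at, read 44.8 in Cbs null and 42.1 in control, under the filter. The 10 genes thus ranged, by their brightest probe sets, from 12.4% lower to 9.64% higher in Cbs null.

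**Figure D1:**
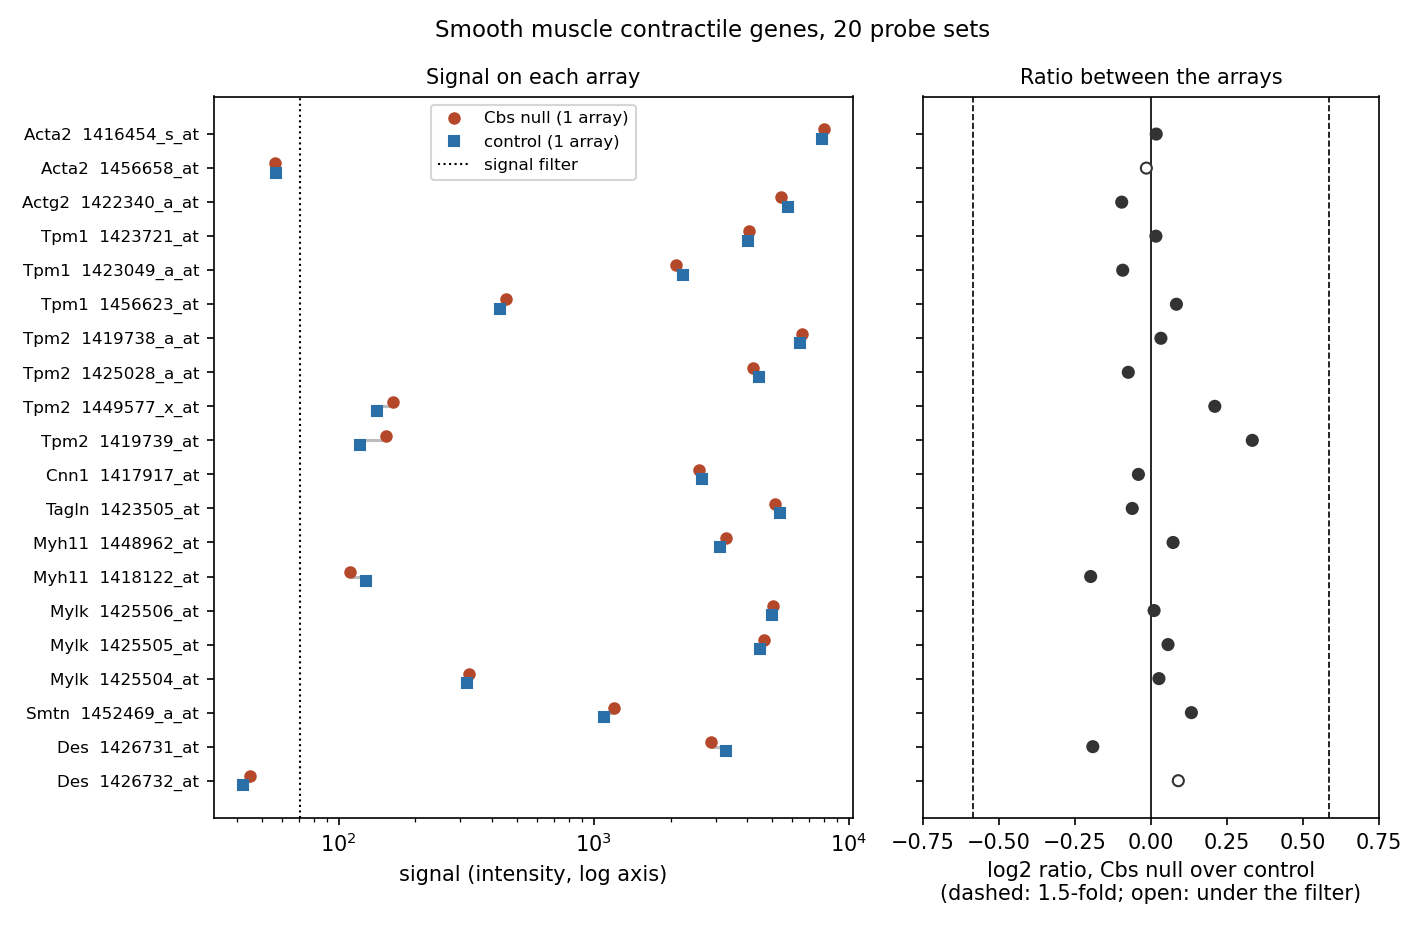
Signals of the 20 probe sets on the Cbs null array (circles) and the control array (squares), on a log axis, with log2 ratios (Cbs null over control) at the right, filled where the probe set passed the signal filter. The paired symbols nearly coincide, and all ratios lie between -0.20 and 0.33, inside the dashed 1.5-fold lines.

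Of the 18 probe sets past the filter, 11 had a ratio above 0 and 7 below, beside 52.9% above 0 among all probe sets past the filter. Their median absolute log2 ratio was 0.07, against 0.14 for all probe sets past the filter. Over all probe sets past the filter, the SD of the log2 ratio was 0.28 both at a mean signal of at least 1000 and below it. The median absolute log2 ratio was smaller at high signal, so the bright range is the closer comparison. There, at a mean signal of at least 1000, a limit chosen after the values were seen, the 13 contractile probe sets had a median absolute log2 ratio of 0.06 and all 1310 probe sets had 0.09. None of the 13 was 1.5-fold apart, beside 3.44% of the 1310. Des, the farthest of the 13 from 0, was exceeded by 23.7% of all probe sets in that range. In all, 7 of the 13 stood above 0 and 6 below, beside 46.4% above 0 among all bright probe sets. The 5 dimmer contractile probe sets past the filter had a median absolute log2 ratio of 0.20, against 0.15 for all 10005 probe sets of that range.

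**Figure D2:**
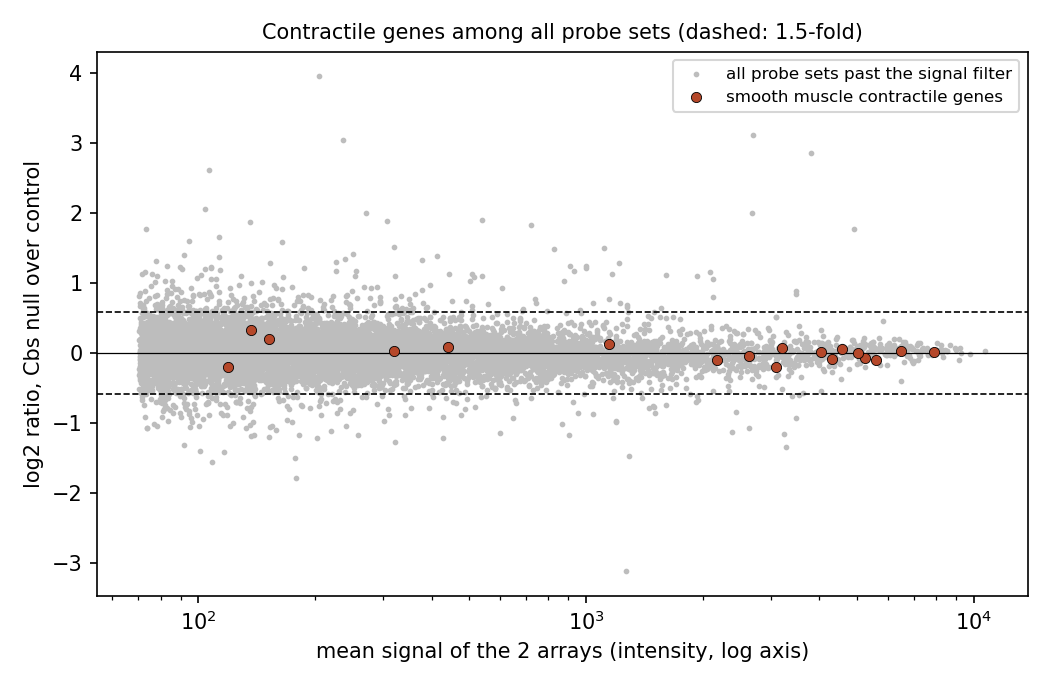
Log2 ratio of Cbs null over control against the mean signal of both arrays (log axis) for all 11315 probe sets past the filter (grey) and the 18 of the contractile genes (coloured). The 13 contractile probe sets at a signal of at least 1000 lie between -0.19 and 0.13, and the 5 dimmer ones between -0.20 and 0.33.

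By gene, the median log2 ratio of the 10 was 0.01, or -0.03 after quantile normalization of the arrays, with 6 above 0 and 4 below, beside a median of 0.02 and 55% above 0 for all 7079 genes past the filter. The signals of the 10 brightest probe sets summed to 44134.9 in Cbs null and 44630.3 in control, a ratio of 0.99. Where a gene had several probe sets past the filter, they differed among themselves by 0.05 for Mylk, 0.18 for Tpm1, 0.27 for Myh11 and 0.41 for Tpm2. Across all 2284 genes with several such probe sets, the difference between the brightest pair had an SD of 0.30 and a median absolute size of 0.16. By its brightest probe set, Des departed from 0 by 0.19, more than that median, and each of the other 9 genes by at most 0.13.

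Other contractile and cytoskeletal genes of smooth muscle had a similar median and a wider range. Of 17 on the array, 15 passed the filter, 8 above 0 and 7 below, with none 1.5-fold apart, while 2.47% of all genes passed that limit upwards in Cbs null and 1.33% downwards. Their median log2 ratio was 0.01, and the range ran from -0.44 for Itga8, an integrin chain, to 0.27 for Lmod1, a leiomodin that nucleates actin filaments. Both ends were dim, at 62.8 in Cbs null and 85.3 in control for Itga8 and 193.7 in Cbs null and 160.7 in control for Lmod1. The contractile genes were read at a mean signal over 1000, so the ranges are at unlike signal. Myl9, the light chain that Mylk phosphorylates, read 4272.5 in Cbs null and 3981.6 in control. Fhl1, a LIM-domain protein of muscle, read 3927.3 in Cbs null and 4722.7 in control, a log2 ratio of -0.27. Cald1, caldesmon, which restrains actin and myosin, had all 3 probe sets below 0, at log2 ratios of -0.12, -0.35 and -0.41. Its brightest probe set read 4241.5 in Cbs null and 4616.8 in control, and the other two lay farther from 0 than any contractile probe set with a signal of at least 1000.

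Genes that set contraction had a median log2 ratio of -0.13 over 11 of 13 on the array, with 5 above 0 and 6 below. None was 1.5-fold apart by the brightest probe set, beside 2.47% of all genes higher and 1.33% lower. Gja1 encodes connexin 43, which couples myometrial cells electrically at term but is also abundant in decidua. Its brightest probe set read 3980.9 in Cbs null and 5126.9 in control, a log2 ratio of -0.36. Of its 6 probe sets past the filter 5 had ratios below 0, between -0.52 and -0.34, and the dimmest, at 163.8 in Cbs null and 62.8 in control, had 1.38. Pcp4, a calmodulin-binding protein found in myometrium, read 3184.2 in Cbs null and 2791.1 in control. Ppp1cb, a catalytic subunit of the phosphatase that reverses myosin phosphorylation, read 1529.3 in Cbs null and 1791.6 in control. Oxtr, the oxytocin receptor, stayed under the filter at 14.9 in Cbs null and 3.6 in control.

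Transcriptional regulators of smooth muscle genes had a median of -0.10 over 6 of 8 on the array, with 2 above 0 and 4 below. None was 1.5-fold apart, beside 2.47% of all genes higher and 1.33% lower. Myocd, myocardin itself, read 330.4 in Cbs null and 419.5 in control, a log2 ratio of -0.34. Srf, serum response factor, read 278.5 in Cbs null and 279.0 in control. Klf4, which in vascular smooth muscle opposes the contractile program, read 1015.3 in Cbs null and 1239.7 in control. The lowest log2 ratio of the contractile probe sets past the filter was -0.20, while Cald1, of the list of other smooth muscle genes, had -0.12, -0.35 and -0.41. Any link between Myocd and these ratios was not tested.

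The nonmuscle actin cytoskeleton, which every cell of the site carries, had a median of 0.01 over its 11 genes, 6 above 0 and 5 below. By the brightest probe set of each gene the range was from -0.22 to 0.16. Other probe sets of these genes lay farther out, and the 6 of Cnn3 past the filter ran from -1.17 to -0.22. Actg1, cytoplasmic gamma-actin, read 6691.1 in Cbs null and 7187.2 in control. Actb, beta-actin, read 6549.8 in Cbs null and 6316.0 in control by its brightest probe set, while its other one had a log2 ratio of -0.29. Vim, vimentin, the intermediate filament of stroma, read 4911.4 in Cbs null and 4885.2 in control by its brightest probe set, while its others had log2 ratios of -0.15 and -0.13.

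Several contractile genes are also made by other cells that a dissected site can hold, so markers of those cells are given beside them. Pericytes make Acta2 and Des. Of 8 pericyte markers 7 passed the filter, with a median log2 ratio of -0.07. Their summed signal over all 8 was 4162.7 in Cbs null and 4331.2 in control. Rgs5, a regulator of G-protein signalling typical of pericytes, read 2052.8 in Cbs null and 2253.3 in control. Pdgfrb, the receptor for platelet-derived growth factor B, read 829.0 in Cbs null and 1005.7 in control, while its second probe set had a log2 ratio of 0.35. Anpep, a peptidase that many epithelia also make, was the one listed pericyte gene at least 1.5-fold apart, at 407.2 in Cbs null and 237.0 in control. Of all genes, 2.47% were at least 1.5-fold higher in Cbs null.

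Heart and skeletal muscle share Des, Tpm1 and Tpm2 with smooth muscle. Of 13 cardiac markers 2 passed the filter, and the summed signal over all 13 was 285.5 in Cbs null and 343.3 in control. Actc1, cardiac alpha-actin, read 55.4 in Cbs null and 88.1 in control, a log2 ratio of -0.67, and Nppa, atrial natriuretic peptide, read 76.6 in Cbs null and 96.2 in control. Of the others, Tnnt2, Myl4 and Myl3 lay under the filter but above the floor of 14.3, with log2 ratios of -0.30, -0.24 and -0.30. Tnni3 and Ryr2, above the floor in Cbs null only, went the other way at 0.36 and 0.13. Tnni1, Myh6, Myh7, Myl2, Myl7 and Nkx2-5 were below the floor on both arrays. Of 16 skeletal markers 2 passed the filter, and Myod1 and Myog, the skeletal lineage regulators, were below the floor. Acta1, skeletal alpha-actin, nevertheless read 1248.6 in Cbs null and 1651.7 in control, a log2 ratio of -0.40. Tnni2, a fast-muscle troponin, read 138.3 in Cbs null and 183.4 in control. Under the filter but above the floor, Ckm, Actn3, Tnnt3 and Mylpf had log2 ratios of -0.76, -0.58, -0.12 and 0.01. Tnnt1, at 37.3 in Cbs null and 14.2 in control, just below the floor there, had 1.38. The summed signal over all 16 skeletal markers was 1566.8 in Cbs null and 2031.2 in control, and Acta1 alone made most of it on both arrays. The part of these cells in the Des, Tpm1 and Tpm2 signals was not tested.

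**Figure D3:**
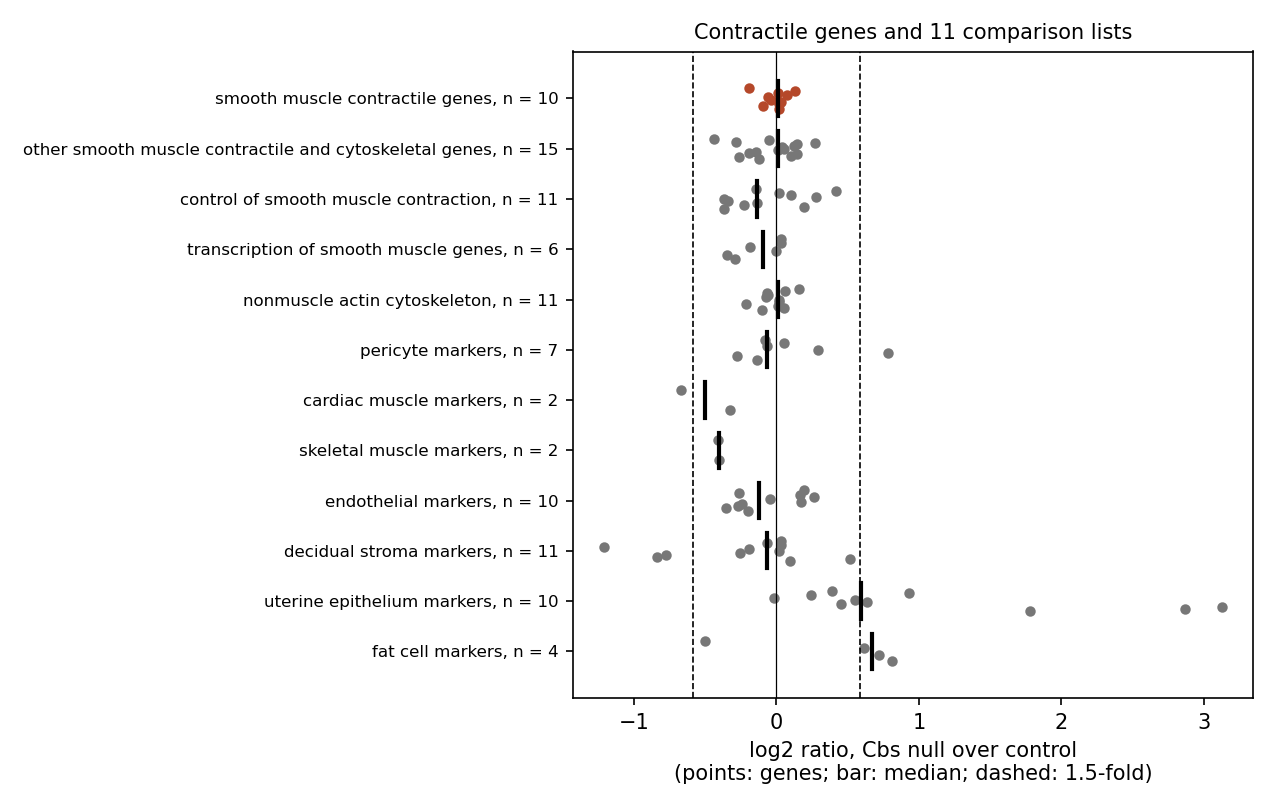
Log2 ratio of Cbs null over control for the brightest probe set of each gene past the filter, in the contractile genes (top) and 11 comparison lists, with bars at the medians. The contractile genes lie between -0.19 and 0.13, the nonmuscle actin cytoskeleton between -0.22 and 0.16, other smooth muscle genes between -0.44 and 0.27, decidual stroma between -1.21 and 0.52 and uterine epithelium between -0.02 and 3.13.

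Endothelial markers, of another tissue of the site, had a median of -0.12 over 10 genes, 4 above 0 and 6 below, ranging from -0.36 to 0.26. None was 1.5-fold apart, beside 2.47% of all genes higher and 1.33% lower. Among them Cd34, a surface protein of vessels, read 1226.5 in Cbs null and 1408.3 in control. Plvap, of capillary fenestrae, read 546.0 in Cbs null and 699.6 in control, and Eng, endoglin, read 327.2 in Cbs null and 394.5 in control. The 4 above 0 were Tek, Tie1, Vwf and Cdh5, at log2 ratios of 0.26, 0.19, 0.18 and 0.16. Decidual stroma markers had a median of -0.06 over 11 genes, of which 3 were at least 1.5-fold lower, beside 1.33% of all genes. These were Bmp2, a growth factor of decidualization, at 258.0 in Cbs null and 597.0 in control, Tdo2, which degrades tryptophan, at 1750.3 in Cbs null and 3129.5 in control, and Fst, follistatin, at 1071.8 in Cbs null and 1838.3 in control. The decidual list also held Igfbp4, which binds insulin-like growth factors, at 3915.6 in Cbs null and 3665.8 in control, and the decidual prolactin Prl8a2 at 3633.6 in Cbs null and 2542.7 in control.

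Uterine epithelium markers had a median of 0.59 over 10 genes, with 5 at least 1.5-fold higher, beside 2.47% of all genes. This list and the decidual one were chosen with earlier results of these data known, so their counts are not evidence of enrichment. Spink1, a trypsin inhibitor, Prss28 and Prss29, gland proteinases, Ltf, lactoferrin, and Krt18, a keratin, were those 5, at log2 ratios of 3.13, 2.86, 1.78, 0.93 and 0.64. Fat cell markers had a median of 0.67 over 4 genes past the filter of 6 on the array. Fabp4, a fatty acid carrier, Adipoq, adiponectin, and Retn, resistin, had log2 ratios of 0.81, 0.72 and 0.61 by their brightest probe sets. A second Fabp4 probe set past the filter had a log2 ratio of 0.36. Plin4, a lipid droplet protein, went the other way at -0.50, and the list median was 0.39 with no signal filter. The summed epithelial signal was 22949.9 in Cbs null and 6409.2 in control, and the 3 genes of highest ratio, Spink1, Prss28 and Prss29, made most of that difference. The other 7 epithelial genes, a split made after the values were seen, summed to 3784.3 in Cbs null and 2713.9 in control, with log2 ratios from -0.02 to 0.93. Fat cells, which lie outside the muscle wall, had sums of 4211.8 in Cbs null and 2576.3 in control. No value of these lists measures the amount of muscle wall taken at dissection, which was not tested.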

How the data were processed

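Per the labels' protocols, total RNA was copied into biotinylated cRNA for Affymetrix arrays. The authors deposited 1 linear intensity for each probe set and array, and the submitters' processing notes name GCOS 1.4. Its summary algorithm and the genome build are not given in the sources used. The 64 control probe sets were set aside. A single gene was annotated for 20380 probe sets, 20351 of them matched by identifier to RefSeq's gene table, and 691 with several genes and 1555 with none were not used for genes. A floor of 14.3, the 25th percentile over both arrays together, replaced lower values, which touched no contractile probe set. Probe sets were kept where the mean signal was at least its median, 70.5, and a gene was read by its brightest probe set. The number of arrays, 1 per group, limits the precision, and no test was run. Called means at least 1.5-fold apart.

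Named genes were the 10 contractile genes, Cbs, and from each of 11 lists the 3 brightest genes and any at least 1.5-fold apart. Oxtr, Itga8, Lmod1, Cnn3, Plin4, Tek, Tie1, Vwf, Cdh5 and the cardiac and skeletal genes under the filter were named after their values were seen. The contractile genes and the lists were chosen with earlier results of these data known. Alternatives were quantile normalization, median centring, a loess trend with a span of 0.3, other floors and filters and a pseudocount. Others were leaving out probe sets marked as shared (names ending in _x_at, _s_at or _a_at), the median over probe sets and a limit of 2-fold. One alternative, the contractile probe sets of at least 1000 alone, was chosen after seeing the data. The functions were tested on simulated data. Computation used Python 3.11.15, pandas 2.3.3 and statsmodels 0.14.6.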

Additional observations from a re-analysis of the deposited data

How the results depend on the processing

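No paired analysis was possible because each group has 1 array and the result comes from no test. Over all alternatives run, none of the contractile probe sets past the filter was 1.5-fold apart, nor 2-fold apart. The median log2 ratio over contractile genes ran from -0.03 to 0.02 over 10 alternatives and so changed sign, and that over their probe sets ran from -0.02 to 0.02. The setting without shared probe sets lost Acta2, Actg2 and Smtn and read Tpm2 by 1419739_at, at 0.33, so its medians cover fewer genes. Of the 20 probe sets, 3 changed sign, all under quantile normalization: Acta2 1416454_s_at to -0.02, Tpm2 1419738_a_at to -0.03 and Mylk 1425506_at to -0.04, the last also under median centring. Those moves were within the SD of 0.30 between probe sets of a gene. That SD is a wide limit, which measures neither variation between arrays nor the error of a median. Among the list medians, 107 of 109 alternatives moved by less than that SD. The exceptions were the cardiac and skeletal lists, which had a median of 0.00 with no signal filter, where most of their genes lie at the floor. Smaller moves also turned signs: the median for control of contraction was 0.02 with the median over probe sets, and the endothelial and pericyte medians were 0.16 and 0.11 without shared probe sets, with pericytes at 0.03 with the median over probe sets. The nonmuscle actin median ran from -0.06 to -0.01 under 4 settings, and that of other smooth muscle genes was -0.01 when centred. All of these are opposite in sign to the values reported. Dim probe sets, such as the second ones of Acta2 and Des, are limited by signal over background.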
